A study of Mus musculus with 6 samples.

Results

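Fatty acid oxidation and its link to ketone body synthesis were described here through 9 genes, chosen by symbol as the rows Cpt1a, Cpt2, Acadm, Acadl, Acadvl, Hadha, Hadhb, Ppara and Ppargc1a. All 9 were found among the 33924 rows of the deposited gene table. The tissue was RPE/choroid, the retinal pigment epithelium scraped from the sclera together with the vascular layer beneath it, from C57BL/6J mice that were wild type by the study's methods and received no treatment that the labels name. There were 3 young and 3 aged mice, with 2 eyes in each sample by the study's methods. By the sample titles the young mice were 1 to 2 months old and the aged mice 20 to 24 months old, whereas the age field of the aged mice reads 22 to 24 months and the study's methods give a different range for the young mice. All mice are labelled male, while the study's methods speak of both sexes.

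For each gene the table gives 1 mean normalized count, which the authors took across all 6 samples, young and aged together. Values of single libraries are not in it, so neither a spread between mice nor a difference between young and aged mice was computed. Its 5 other numeric columns hold the authors' own comparison of the age groups and were not used. What follows is therefore a description of levels in young and aged RPE/choroid pooled, with no test and no replicate error. The means summed to 40816668 over all rows, of which the 9 genes held 0.0848%. The depth of single libraries is unknown.

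Long-chain fatty acids enter mitochondria as carnitine esters, made by CPT1 at the outer membrane and turned back into acyl-CoA by CPT2 at the inner membrane. Each round of beta-oxidation starts with an acyl-CoA dehydrogenase, and for long chains the remaining steps are carried out by the mitochondrial trifunctional protein. The acetyl-CoA released can be burned or joined into ketone bodies, and the RPE, which takes up lipid-rich photoreceptor outer segments, is known for both activities. PPARα, a nuclear receptor activated by fatty acids, and its coactivator PGC-1α, encoded by Ppargc1a, are textbook regulators of these enzymes.

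To set genes side by side, each mean normalized count was divided by the length in kilobases of the longest protein-coding transcript of the gene. The study's methods derive the normalized counts from TPM values, a unit that already accounts for length, and do not say whether length was put back. If it was not, the undivided means are the comparable ones, and by these the order is Hadha, Acadm, Cpt1a, Hadhb, Acadvl, Acadl, Ppargc1a, Cpt2 and Ppara, with 8 of 9 above the median gene. The values were placed among the 15516 protein-coding genes whose mean reached 10 normalized counts, and whose median level was 251 per kilobase. Of the 9 genes, 7 lay above that median, 6 lay in the upper 25% of genes and 5 in the top 10%, which began at 1912 per kilobase. The count in the top 10% rests on the length and the limit chosen. Per kilobase of coding sequence Acadm was the highest of the 9, at the 89.7 percentile and thus outside the top 10%. Among genes with a mean of at least 100, Acadm stood at the 92.4 percentile and Hadhb, the next, at 89.55. The 7 enzyme genes held 96.4% of the summed mean counts of the list. The 2 regulators were the genes below the median. Over the whole list the levels spanned a factor of 59.2, from Ppara to Acadm.

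**Figure D1:**
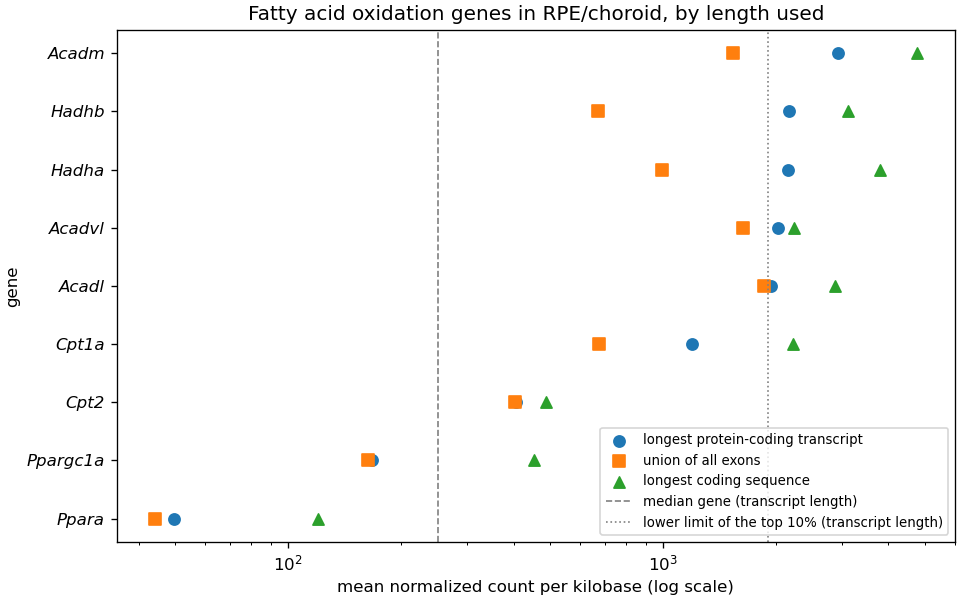
Mean normalized count per kilobase of the 9 genes on a log axis, with the length of a gene taken from its longest protein-coding transcript (circles), the union of its exons (squares) or its longest coding sequence (triangles). The lines mark the median gene (251 per kilobase) and the lower limit of the top 10% of genes (1912 per kilobase) by transcript length. There are no error bars because the table holds 1 mean per gene. Ppara was lowest under each length, followed by Ppargc1a and then Cpt2.

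The acyl-CoA dehydrogenases catalyse the first step of each round and differ in the chain length they prefer. Acadm, the medium-chain enzyme, had the highest level of the list, with a mean of 6015 normalized counts and 2938 per kilobase, above 93.7% of the genes compared. For Acadvl, the very-long-chain enzyme, the mean was 4406 normalized counts, or 2032 per kilobase. For Acadl, the long-chain enzyme, it was 3723 normalized counts, or 1943 per kilobase. Acadl lay at the 90.1 percentile, just inside the top 10% of genes. Acadm was 1.51 times as high as Acadl per kilobase of transcript, but 0.828 times as high when the union of all exons served as length, so the order within the trio rests on the length chosen. The level of Acadvl exceeded that of Acadl by a factor of 1.05 and fell below it, at 0.776, per kilobase of coding sequence.

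In GRCm38, Acadm (ENSMUSG00000062908) spans chr3:153922357-153944632 on the minus strand and has 12 exons in its longest coding transcript. Acadl (ENSMUSG00000026003) spans chr1:66830839-66863277, minus strand, with 11 exons, and an intron of it holds the processed pseudogene Gm15793, which has its own row with a mean normalized count of 439. Acadvl (ENSMUSG00000018574) spans chr11:70010183-70015411, minus strand, with 20 exons. Its exons overlap 1151 bases of the exons of Dvl2, a Wnt pathway gene on the opposite strand with a mean normalized count of 713. Of the 50-base words in the Acadvl transcript, 24.0% were also found in Dvl2 transcripts when both strands were read. The labels name a stranded library kit, but the strand setting of the quantification is not given in the sources used here, so how reads in the overlap were divided is unknown.

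Hadha and Hadhb encode the α and β subunits of the trifunctional protein, the first with the hydratase and long-chain hydroxyacyl-CoA dehydrogenase activities and the second with the thiolase. Hadha had the highest mean normalized count of the list, 8676, and Hadhb had 4434. The α subunit transcript is the longer, 4017 against 2048 bases, and per kilobase the values were 2160 for Hadha and 2165 for Hadhb. The ratio of Hadhb to Hadha was thus 1.00 per kilobase of transcript, and 0.677 and 0.821 with the union of exons and the coding sequence as length. As deposited, without division by length, Hadha was 1.96 times as high as Hadhb.

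The level of Hadhb is uncertain for another reason. Only 37.6% of the 50-base words of its transcript were found in no other annotated gene, the lowest share in the list. Gm13910, a processed pseudogene of 1428 bases at chr2:108948806-108950233 on the plus strand, held 61.5% of the words of Hadhb. This pseudogene has its own row with a mean normalized count of 7815, which is 1.76 times that of Hadhb. When its counts were added to those of Hadhb, a step chosen after seeing the data, Hadhb reached 5981 per kilobase, at the 97.3 percentile of genes, and stood 2.77 times as high as Hadha. The table does not tell which of both loci the reads came from.

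**Figure D2:**
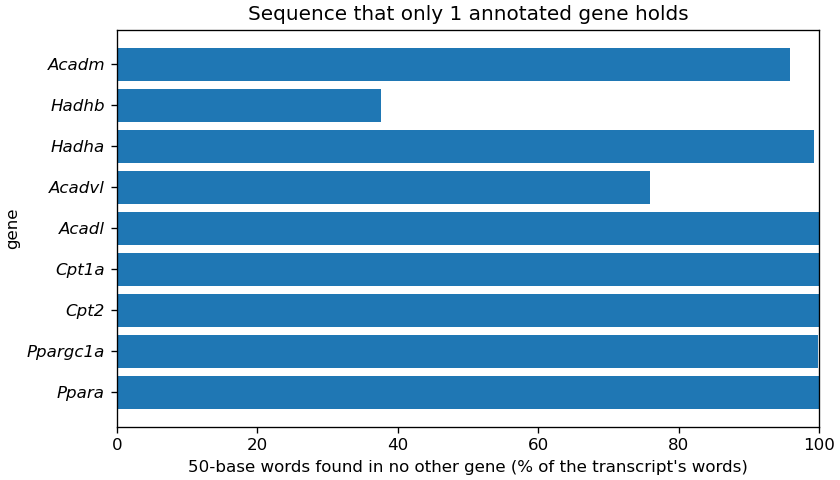
Percent of the 50-base words in the longest protein-coding transcript of each of the 9 genes that are found in no transcript of another annotated gene, with both strands read. Hadhb stands at 37.6% and Acadvl at 76.0%, and each of the other 7 genes is at 95.9% or more.

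The pair also shares its start region. Hadha (ENSMUSG00000025745) spans chr5:30118304-30155162 on the minus strand and Hadhb (ENSMUSG00000059447) spans chr5:30155248-30184593 on the plus strand, so that both genes point away from each other with annotated ends 86 bases apart. RefSeq places the starts 273 bases apart, and the promoter windows of both genes, each from 250 bases before to 50 bases after the RefSeq start, have 228 bases in common. Both windows are shown 5′ to 3′ on the strand of their gene, from RefSeq on GRCm38.p6, because they are the same DNA read in opposite directions over most of their length. Capitals mark the GC box letters GGGCGG or their reverse complement. The Hadha window is chr5:30154931-30155230 on the minus strand and the Hadhb window is chr5:30155003-30155302 on the plus strand.
Hadha: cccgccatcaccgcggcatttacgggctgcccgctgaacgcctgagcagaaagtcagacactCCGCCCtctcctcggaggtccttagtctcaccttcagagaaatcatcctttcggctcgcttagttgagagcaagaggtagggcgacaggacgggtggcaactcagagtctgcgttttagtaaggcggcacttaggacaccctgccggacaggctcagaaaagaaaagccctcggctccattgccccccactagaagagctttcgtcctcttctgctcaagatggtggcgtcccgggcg
Hadhb: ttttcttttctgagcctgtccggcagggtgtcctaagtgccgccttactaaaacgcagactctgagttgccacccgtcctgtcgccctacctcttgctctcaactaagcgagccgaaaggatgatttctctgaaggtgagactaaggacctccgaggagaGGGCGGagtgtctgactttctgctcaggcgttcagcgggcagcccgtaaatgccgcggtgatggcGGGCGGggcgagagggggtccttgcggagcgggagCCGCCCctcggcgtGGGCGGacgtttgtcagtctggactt
The Hadha window held 1 GC box match and the Hadhb window 4, and the single Hadha match and the Hadhb match that begins at -90 are 1 site, read on opposite strands. GC box letters occurred in 35.7% of the 32851 RefSeq windows of this length and in 6 of the 9 windows of the list, which are those of Acadl, Cpt1a, Cpt2, Hadha, Hadhb and Ppara.

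Per kilobase of transcript, both carnitine palmitoyltransferases were lower than the 5 genes of the oxidation steps, although Cpt1a and Hadhb changed places when the union of exons served as length, and without division by length Cpt1a stood above Hadhb, Acadvl and Acadl. With the median transcript of a gene as length, Cpt1a was at the 92.4 percentile. It then stood above each of the 5 but Acadm, which was at 93.6. Cpt1a, the form of the outer membrane enzyme best known from liver and the step that malonyl-CoA inhibits, reached a mean of 5152 normalized counts and 1193 per kilobase, at the 84.2 percentile. Cpt2, the single inner membrane enzyme, reached 963 normalized counts and 406 per kilobase, at the 61.7 percentile. Cpt1a exceeded Cpt2 by a factor of 2.94 per kilobase of transcript, 1.67 with the union of exons, 4.56 with the coding sequence and 5.35 as deposited. Cpt2 was the lowest of the 7 enzyme genes under each of the 3 lengths, and per kilobase of coding sequence it fell just below the median gene, at the 48.0 percentile. Cpt1a (ENSMUSG00000024900) spans chr19:3322334-3385733 on the plus strand and Cpt2 (ENSMUSG00000028607) spans chr4:107903981-107923610 on the minus strand. All 50-base words of both transcripts were their own.

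Per kilobase of transcript, the 2 regulators were the lowest of the list. Ppargc1a had a mean normalized count of 1082, which a transcript of 6464 bases brought to 167 per kilobase, at the 41.0 percentile of genes. For Ppara the mean was 169 normalized counts, or 49.7 per kilobase, at the 20.5 percentile. Ppargc1a was 3.37 times as high as Ppara per kilobase of transcript, 3.71 and 3.75 times as high with the union of exons and the coding sequence as length, and 6.38 times as high as deposited. The ratio of Cpt2 to Ppargc1a was 2.42 per kilobase of transcript, 1.08 per kilobase of coding sequence and 0.89 as deposited, so Ppara alone was below each enzyme gene on each of these scales. The transcript of Ppargc1a is long beside its coding sequence of 2391 bases. Without division by length Ppargc1a stood at the 56.5 percentile. Ppara (ENSMUSG00000022383) spans chr15:85734983-85802819 on the plus strand and Ppargc1a (ENSMUSG00000029167) spans chr5:51454250-51567726 on the minus strand.

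PPARα binds DNA with a retinoid X receptor at direct repeats of the half-site AGGTCA with 1 base between them. That repeat, with any base in the gap and both strands read, was found in none of the 9 promoter windows and in 13 of the 32851 RefSeq windows, or 0.04%. A single AGGTCA, a letter string the repeat also contains, was found in 3 windows of the list and in 16.3% of all windows. The 3 windows belong to the enzyme genes Acadm, Acadvl and Cpt1a and are shown because they hold those letters. Capitals mark AGGTCA or its reverse complement, and in Cpt1a also GC boxes and the CCAAT box, which occurred in 37.4% of all windows and in this window of the list alone. The windows are chr3:153944594-153944893 on the minus strand for Acadm, chr11:70015379-70015678 on the minus strand for Acadvl and chr19:3323051-3323350 on the plus strand for Cpt1a.
Acadm: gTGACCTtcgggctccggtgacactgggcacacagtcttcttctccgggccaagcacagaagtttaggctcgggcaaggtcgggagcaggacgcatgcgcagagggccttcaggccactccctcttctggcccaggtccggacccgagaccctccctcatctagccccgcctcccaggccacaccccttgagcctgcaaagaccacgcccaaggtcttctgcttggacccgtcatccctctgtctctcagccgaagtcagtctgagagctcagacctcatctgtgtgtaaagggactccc
Acadvl: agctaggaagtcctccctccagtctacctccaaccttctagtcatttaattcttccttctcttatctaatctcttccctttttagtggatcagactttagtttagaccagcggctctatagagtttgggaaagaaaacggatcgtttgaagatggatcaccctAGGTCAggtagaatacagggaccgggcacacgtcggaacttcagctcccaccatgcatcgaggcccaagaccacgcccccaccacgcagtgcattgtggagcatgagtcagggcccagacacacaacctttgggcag
Cpt1a: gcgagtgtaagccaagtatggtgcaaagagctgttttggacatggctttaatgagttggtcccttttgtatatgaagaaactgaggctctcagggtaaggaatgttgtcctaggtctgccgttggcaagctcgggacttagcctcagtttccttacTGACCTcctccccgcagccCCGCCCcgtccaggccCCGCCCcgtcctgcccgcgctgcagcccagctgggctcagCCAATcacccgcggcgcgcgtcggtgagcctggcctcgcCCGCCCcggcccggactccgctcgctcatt
Counted from the RefSeq start, with negative positions before it, the AGGTCA matches begin at -249 in Acadm, -87 in Acadvl and -94 in Cpt1a. The extended half-site CAAGGTCA, which contains AGGTCA, the cyclic AMP response element TGACGTCA and the TATA box letters TATAAA were found in none of the 9 windows, against 1.56%, 1.79% and 13.6% of all windows. The GC content of the windows ran from 48.7% for Ppargc1a to 74.7% for Ppara, beside a median of 52.7% over all windows. The ratio of observed to expected CpG was lowest in the window of Ppargc1a, at 0.282, and highest in that of Acadl, at 0.932, with a median of 0.384 over all windows. These matches describe letters in the windows and are not sites of measured binding.

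The other genes of the pathway were read from a list of 66 symbols, all of which have a row and 65 of which reached a mean normalized count of 10. Of these, 46 lay above the median gene per kilobase of transcript, 34 in the upper 25% and 18 in the top 10%. The counts for the pathway lists were made on this scale alone, on which a long transcript lowers the place of a gene. Among the 11 further enzymes of mitochondrial beta-oxidation, 11 lay above the median gene and 6 in the top 10%. The highest were Eci1, an enoyl-CoA isomerase for unsaturated chains, with 7282 per kilobase, Acaa2, the thiolase for medium chains, with 5852, and Echs1, the short-chain hydratase, with 4063. The lowest were Acad10 with 333, Acad9 with 602 and Acads, the short-chain dehydrogenase, with 927 per kilobase. The short-chain Acads thus stood below each of the 3 acyl-CoA dehydrogenases described above. Etfa, Etfb and Etfdh, which pass electrons from these dehydrogenases to the respiratory chain, had 2055, 7585 and 1465 per kilobase.

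In the rest of the carnitine route, 4 of 5 genes lay above the median gene. Slc25a20, the carnitine-acylcarnitine carrier between both membranes, had 1426 per kilobase, Slc22a5, a plasma membrane carnitine transporter, had 829 and Crat, the carnitine acetyltransferase, had 436. Cpt1c, the form known from brain, had 260 per kilobase. For Cpt1b, the form of muscle, the mean was 10.2 normalized counts, or 3.53 per kilobase, at the 1.00 percentile of genes. In the annotation 93.0% of the 50-base words of Cpt1b are shared with Gm44502, an annotated protein-coding gene that was matched to no row of the table, and 6.99% are its own. The value of Cpt1b is therefore uncertain, and Cpt1a cannot be ranked against it.

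Among the acyl-CoA synthetases, which activate fatty acids, Acsl6 was highest with 4257 per kilobase, followed by Acsl3 with 1875, Acsl5 with 941, Acsl1 with 863 and Acsl4 with 324. In malonyl-CoA control, the 2 acetyl-CoA carboxylase genes that make the inhibitor of CPT1 had 200.0 per kilobase for Acaca and 157 for Acacb, while Mlycd, the decarboxylase that removes it, had 1039. Their transcripts differ much in length, with 9513, 8788 and 2128 bases in this order. As deposited, without division by length, the means were closer, at 1903, 1376 and 2211 normalized counts. Of the words of Acaca, 52.6% are shared with the processed pseudogene Gm5182, for which no row was found.

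In the ketogenic branch 3 of 4 genes lay in the upper 25%. Acat1, the thiolase that joins acetyl-CoA, had 2514 per kilobase, at the 92.6 percentile. Bdh1, which reduces acetoacetate to beta-hydroxybutyrate, had 250.1 per kilobase, at the 49.9 percentile and thus next to the median gene. Oxct1, the enzyme that starts ketone body use, had 5028 per kilobase. The monocarboxylate transporter Slc16a1 had 9589 and its partner Bsg had 42301, whereas Slc16a6 had 405, Slc16a3 had 258 and Slc16a7 had 15.2 per kilobase.

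**Figure D3:**
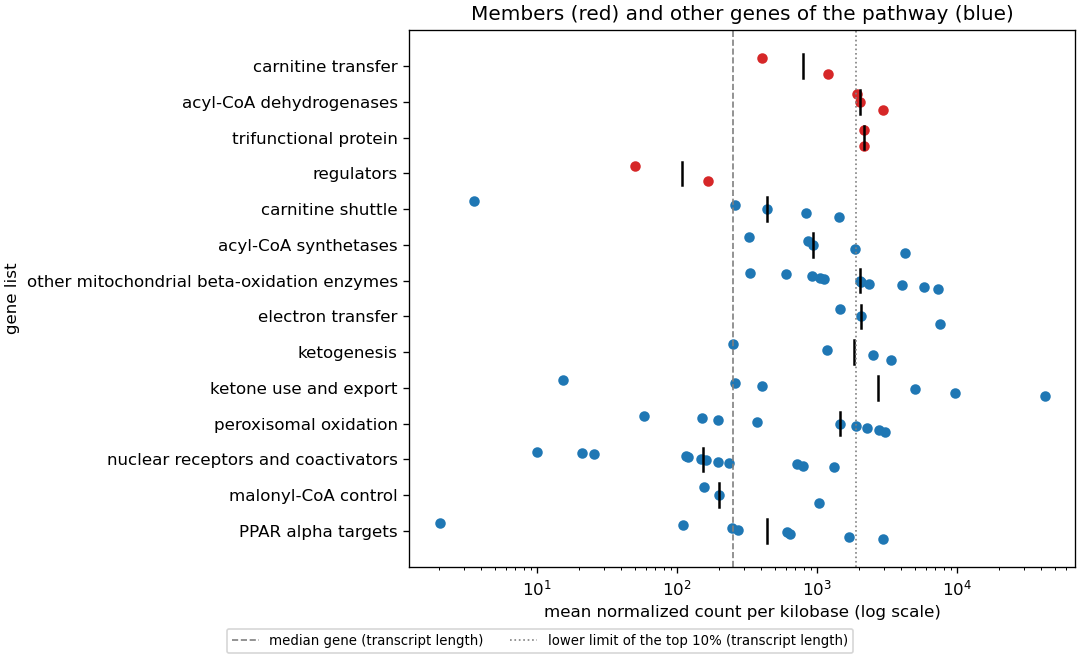
Mean normalized count per kilobase of transcript, on a log axis, for the 9 genes in their 4 groups (red) and for the 66 other pathway genes in 10 groups (blue), with each gene a point and the median of a group a black bar. The dashed line marks the median gene at 251 and the dotted line the lower limit of the top 10% at 1912 per kilobase. The dehydrogenases and the trifunctional protein sit at or right of the dotted line, and most nuclear receptors and coactivators sit left of the dashed line.

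Peroxisomal oxidation, which shortens very long chains before mitochondria take over, had 5 of 9 genes in the upper 25%. Among them were Acaa1a with 3063 and Abcd3 with 2286 per kilobase, and near the low end of the list were Ehhadh with 151 and Abcd2 with 197. Of the 12 nuclear receptors and coactivators beside Ppara and Ppargc1a, 3 lay above the median gene per kilobase of transcript. These were Esrra, an orphan receptor that works with PGC-1α, with 1325, and the retinoid X receptors Rxrb with 787 and Rxra with 724 per kilobase. Without division by length at least Ncor1 and Nrip1 lay above the median gene as well, with mean normalized counts of 2123 and 1159. Both exceed the 963 of Cpt2, which stood at the 53.5 percentile on that scale. The other PPAR genes had 161 per kilobase for Pparg and 25.4 for Ppard, so that Ppara lay between them. Ppargc1b with 10.03 and Pprc1 with 21.02 per kilobase were below Ppargc1a. Among 8 textbook target genes of PPARα, Plin2, a lipid droplet coat protein, had 2976, Cd36, a fatty acid receptor, had 1696 and Acot1 had 637 per kilobase. At the low end Pdk4 had 246, Ucp3 had 110 and Fgf21 had a mean normalized count of 1.92, below the limit for comparison.

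RPE/choroid is a mixture, and fewer cells of a type cannot be told apart from less RNA per cell. Of 9 RPE markers, 7 lay in the top 10% of genes, with Ttr at 335233, Rgr at 63232 and Rpe65 at 61154 per kilobase, while Best1 was low at 39.3. The 4 genes listed as melanocyte markers ran from 4287 to 116705 per kilobase, and whether their RNA came from melanocytes or from the RPE was not tested. Markers of rods and skeletal muscle, which lie outside the RPE and choroid, were also high. The 6 rod markers lay in the top 10% of genes, and the 6 skeletal muscle markers between 3566 and 54081 with Mylpf highest. These 6 muscle markers summed to a mean normalized count of 220901, beside 34620 for the 9 fatty acid oxidation genes and 1007355 for the 9 RPE markers. Skeletal muscle expresses most of these oxidation enzymes too, and how much of their level came from each cell type was not tested. The 4 macrophage markers ran from 1197 to 12659 and the 4 endothelial markers from 179 to 1909 per kilobase. Of the 5 red cell markers 3 were matched, at 781 to 64451 per kilobase, and the 3 Schwann cell markers ran from 304 to 1022. No marker of adipocytes, heart or hepatocytes lay above the median gene, with values of 0.915 to 50.7 per kilobase for 4 adipocyte markers, 2.53 to 36.6 for 3 heart markers and 2.99 to 61.1 for 4 hepatocyte markers.

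**Figure D4:**
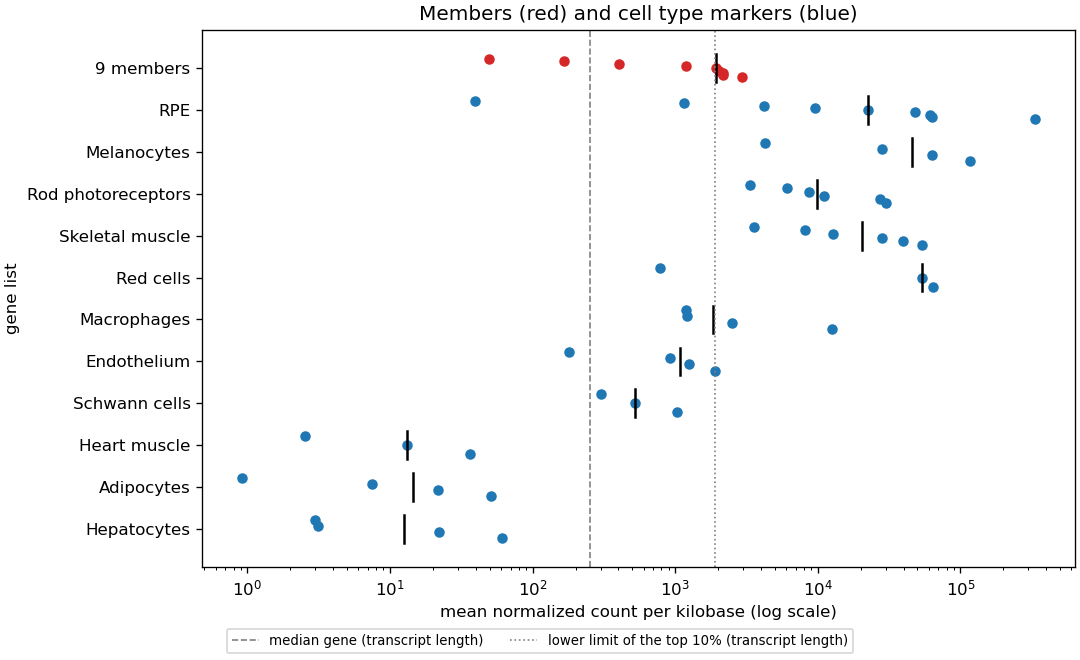
Mean normalized count per kilobase of transcript, on a log axis, for the 9 fatty acid oxidation genes (red) and for markers of 11 cell types (blue), with each gene a point and the median of a list a black bar. The melanocyte, rod and skeletal muscle markers shown all lie above the highest of the 9 genes, at 2938 per kilobase, and those of heart, adipocytes and hepatocytes stay below the dashed line of the median gene.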

How the data were processed

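Libraries were made by the authors from RPE/choroid RNA of 3 young and 3 aged mice after rRNA removal and poly(A) selection. The authors used BBDuk for trimming and STAR for mapping to Ensembl transcripts of GRCm38, quantified TPM with Sailfish, converted these by total count normalization and used DESeq2 between ages. The signal used here is the mean normalized count per gene in the authors' deposited table, pooled over the 6 libraries. Depth is unknown per library. The table's 5 other numeric columns hold the authors' fold change between ages, its standard error, its statistic, the p-value and the adjusted p-value. They were not used, and with no values per library the planned test of age could not be run.

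Gene lengths and positions came from GENCODE M21 (GRCm38), a later annotation than the authors'. Of the rows, 19131 matched a protein-coding gene by symbol and 1767 by an older symbol, which gave 20891 genes holding 91.2% of the summed means. Genes with a mean of at least 10 were compared. A percentile is the percent of those genes below a level. Promoter windows came from RefSeq (GRCm38.p6) and matched all 9 genes by symbol. Words of 50 bases were sought in all GENCODE transcripts on both strands. The 9 genes, the pathway lists and the markers were chosen with earlier results of these data known. Named genes are all 9, and of each pathway list all genes where it has at most 6, otherwise the 3 highest and 3 lowest. Pparg, Ncor1, Nrip1 and the single marker genes were named outside this rule after their values were seen. Some genes of the lists are not reported here by name. The arithmetic of levels and percentiles was checked on simulated data without noise, and that of lengths on a made-up gene. These checks do not bear on which length applies or on whether the deposited means already account for length. Computations used Python 3.11.15, numpy 2.4.6, pandas 2.3.3 and matplotlib 3.10.9. Alternatives were other lengths, other limits on the mean, and no division by length.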

Additional observations from a re-analysis of the deposited data

How the results depend on the processing

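No paired analysis was possible because single libraries have no values here. For the same reason the age comparison, with its other scaling, other filter and left-out replicates, was not run. The number of the 9 genes above the median gene was 7 and stayed between 6, per kilobase of coding sequence, and 8, without division by length or with the median transcript of a gene as length. The span from the lowest to the highest gene was 59.2 and became 42.0 with the union of exons, 39.5 with the coding sequence, 51.2 without division by length and 68.5 with the median transcript. It was 120 with the counts of Gm13910 added to Hadhb. The last 2 settings were chosen after seeing the data. Ppara was the lowest gene in each setting, whereas the highest was Acadm, Acadl, Hadha or Hadhb. Of the 36 pairs of genes, 27 had the same order under the 3 lengths and 9 did not. Without division by length, some of these 27 reversed as well. Hadha then stood above Acadm, Cpt1a above Acadvl and Acadl, and Ppargc1a above Cpt2.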

Other observations

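Shared sequence touched other genes of the pathway as well. Of the 66 other pathway genes, 10 had under 80% of their 50-base words to themselves, as did 2 of the 9 genes, Hadhb and Acadvl. Etfb, the β subunit of the electron transfer flavoprotein, had 32.7% own words and shared 67.3% with Gm45233, an annotated protein-coding gene matched to no row. Acaa1a and Acaa1b, the peroxisomal thiolases, had 64.9% and 53.8% own words, and Acot1 and Acot2 had 66.8% and 72.3%. The levels of these genes, chosen here after their values were seen, are also uncertain, to an extent that was not measured and need not equal that of Hadhb.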
